A study of Mus musculus with 12 samples.

Results

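Mitochondrial ribosomal protein genes were followed through 4 pieces of the mouse hippocampus. They were chosen by name: every gene whose symbol in the array's annotation starts with Mrpl or Mrps and a digit was taken, and 4 pseudogenes were left out. This gave 74 of the 30142 genes measured, 46 of them named Mrpl for the large and 28 named Mrps for the small ribosomal subunit. Each was read by 1 feature that names no other gene. Mrpl30, Mrpl53 and Mrps6 were measured only on features shared with another gene and are not among the 74.

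The tissue came from 3 males, 6 to 8 weeks old and each of another litter, of the Amigo2-EGFP line with a C57BL/6J background. Every group thus carried the reporter, a fluorescent protein driven by the Amigo2 gene. The 4 groups, with 3 Affymetrix whole-transcriptome arrays each, were the stratum radiatum of CA2 (the CA2 dendritic layer), the stratum pyramidale of CA2 (the CA2 cell body layer), and the same layers of CA1. CA1 and CA2 are neighbouring fields of excitatory pyramidal neurons. The stratum pyramidale holds their cell bodies, and the stratum radiatum holds their apical dendrites together with axons, interneurons, glia and blood vessels. The pieces were cut out with a laser from frozen sections of 8 µm and amplified from 5 to 7 ng of RNA. The labels do not say in words that replicate numbers 1 to 3 stand for the 3 mice, so a p-value may in part measure technical spread.

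Mitochondria carry their own ribosome, which makes the few proteins that mitochondrial DNA encodes, all of them parts of the respiratory chain and of ATP synthase. Its RNAs come from mitochondrial DNA, but all its proteins are encoded in the nucleus, made on cytosolic ribosomes and imported. Some of these proteins have a bacterial counterpart and others are named as specific to mitochondria in the nomenclature of ribosomal proteins. By that naming, 44 of the 74 genes encode a protein with a bacterial homolog and 30 a protein specific to mitochondria. Mrps18a and Mrps18b count among the 30, although they are related to Mrps18c, which counts among the 44. The names are not exact. The products of Mrps30 and Mrps18a sit in the large subunit, and that of Mrps36 belongs to the ketoglutarate dehydrogenase complex of the citric acid cycle, so 48 of the 74 products are large-subunit proteins, 25 are small-subunit proteins and 1 is neither.

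Promoters of genes for mitochondrial proteins often hold sites for the factors NRF1, GABPA (of the ETS family) and YY1, so the promoters of the genes were read for the letters of these sites. RefSeq promoters (build GRCm38.p6), which run from 250 bases before to 50 bases after a listed gene start, were found for 65 of the 74 genes. Of these genes 3 had several promoters, and a gene was counted if any of its promoters held the letters. The letters searched on both strands were GCGCA, any base and GCGC for NRF1, CCGGAAG for the ETS family and AAGATGGCG for YY1. The ETS and YY1 letters can overlap at AAG, and the table held 0 windows with such an overlap among all genes, so the shares below hold only for the windows of this table, which may not be complete. The 6 promoters below are each given as the 150 bases before the listed start, 5′ to 3′ along the gene's strand, with motif matches in capitals. For Mrpl22, Mrpl45 and Mrpl36 this start lies inside the annotated span of the gene. Mrpl22 and Mrps22 are among the genes with the largest layer differences and hold ETS letters. Mrpl45 holds NRF1 letters, and Mrpl12 holds them on the opposite strand. Mrpl36 holds YY1 letters on the opposite strand. Mrpl52, the gene called higher in both dendritic layers, holds ETS letters too, on the opposite strand.
Mrpl22, chr11:58171514-58171663, plus strand: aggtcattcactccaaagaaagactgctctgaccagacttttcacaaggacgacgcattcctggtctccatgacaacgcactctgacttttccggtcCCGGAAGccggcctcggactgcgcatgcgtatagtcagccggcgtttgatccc
Mrps22, chr9:98601680-98601829, minus strand: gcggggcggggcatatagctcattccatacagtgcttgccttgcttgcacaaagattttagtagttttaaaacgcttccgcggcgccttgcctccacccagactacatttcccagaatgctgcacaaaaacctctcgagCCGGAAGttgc
Mrpl45, chr11:97315566-97315715, plus strand: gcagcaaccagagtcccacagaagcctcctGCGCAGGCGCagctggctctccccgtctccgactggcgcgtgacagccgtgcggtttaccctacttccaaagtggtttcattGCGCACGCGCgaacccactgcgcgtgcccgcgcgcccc
Mrpl12, chr11:120484487-120484636, plus strand: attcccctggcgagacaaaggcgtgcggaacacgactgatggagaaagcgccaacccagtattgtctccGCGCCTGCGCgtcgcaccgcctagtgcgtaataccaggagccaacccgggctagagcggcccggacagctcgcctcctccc
Mrpl36, chr13:73330859-73331008, plus strand: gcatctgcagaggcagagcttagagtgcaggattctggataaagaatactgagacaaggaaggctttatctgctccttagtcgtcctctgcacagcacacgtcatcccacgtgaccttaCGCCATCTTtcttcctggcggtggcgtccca
Mrpl52, chr14:54426759-54426908, plus strand: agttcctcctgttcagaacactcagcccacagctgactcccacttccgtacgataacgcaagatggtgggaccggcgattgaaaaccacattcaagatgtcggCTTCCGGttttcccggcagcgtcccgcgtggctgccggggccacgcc
The NRF1 letters were in promoters of 12 of the 65 genes (18.5%), against 5.19% of the 27025 genes with a promoter in the table. The ETS letters were in those of 24 (36.9%), against 9.93% of all genes, and the YY1 letters in those of 8 (12.3%), against 1.64%. At least 1 of these motifs was in promoters of 38 of the 65 genes (58.5%), against 15.1% of all genes. The promoters of the 65 genes were also richer in CpG, with a median of 21 CpG in 300 bases against 7 for all genes, and in G and C, with a median of 58.0% against 52.8%. The genes called lower in both dendritic layers (33 with a promoter) held a motif in 51.5%, against 65.6% of the other 32. A match of letters is a description and not a binding site.

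Most neuron markers read as the capture should give, and 3 arrays stood apart. All values are the authors' normalized log2 expression, and 1 unit is a 2-fold step. The mean of 6 CA2 neuron markers was 9.88 to 10.03 on the CA2 cell body arrays, against 7.06 to 7.17 on the CA1 cell body arrays. The mean of 5 CA1 neuron markers was 8.40 to 8.64 on the CA2 cell body arrays, against 9.97 to 10.05 on the CA1 cell body arrays. Of these, Spink8 went the other way, at 10.79, 10.81 and 10.68 in CA2, against 10.40, 10.36 and 10.34 in CA1. Pou3f1 differed little, at 8.36, 8.54 and 8.26 in CA2, against 8.63, 8.56 and 8.75 in CA1. On CA2 dendritic arrays 2 and 3 and on CA2 cell body array 1, the mean of 14 oocyte genes was 7.39 to 7.50, against 5.21 to 5.69 on the other 9 arrays, although the labels give male brain tissue. Results for CA2 are therefore given also without these 3 arrays, which leaves 1 CA2 dendritic array, assumed to vary like the other groups. All CA2 arrays have 1 run number and all CA1 arrays another, so wherever CA2 is set against CA1 the effects of region and run cannot be told apart.

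Most of the 74 genes were measured above background. Their mean level over the 12 arrays ran from 5.68 for Mrpl33 to 11.25 for Mrpl42, with a median of 8.32, against 6.52 for all genes. The mean level of 73 of them was above the median feature at 5.76, the exception being Mrpl33, and 50 were above the 95th percentile of the background features on every array (7.14 to 7.77). The other 24, among them Mrpl22, Mrpl44, Mrpl45, Mrpl47, Mrps9, Mrps22 and Mrps30, were not above it on at least 1 array, where the size of a difference is less certain. Mrpl33, Mrps27 and Mrps35 were above it on 0 of the 12 arrays, Mrpl1 on 1, and Mrpl40 and Mrps30 on 2. The calls given below for Mrps27, Mrps35, Mrpl1 and Mrps30 thus rest on values near background. Over the 74 genes the median SD among 3 arrays was 0.084 in the CA2 dendritic layer, 0.059 in the CA2 cell body layer, 0.111 in the CA1 dendritic layer and 0.073 in the CA1 cell body layer. Arrays give no depth of reads, and their number limits the precision. In bulk pieces such as these, fewer cells of a type and less RNA per cell cannot be told apart.

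Averaged over the 74 genes, expression was lower in both dendritic layers than in the cell body layers. The mean was 8.27, 8.30 and 8.26 on the CA2 dendritic arrays, against 8.54, 8.60 and 8.55 on the CA2 cell body arrays. It was 8.13, 8.07 and 8.19 on the CA1 dendritic arrays, against 8.48, 8.46 and 8.46 on the CA1 cell body arrays. The layers did not overlap in either region, and the large- and small-subunit genes each showed the same order. The CA2 cell body layer had the highest group mean of the 4 for 44 genes, the CA1 cell body layer for 19, the CA2 dendritic layer for 6 and the CA1 dendritic layer for 5. The lowest group mean was in the CA1 dendritic layer for 43 genes.

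**Figure D1:**
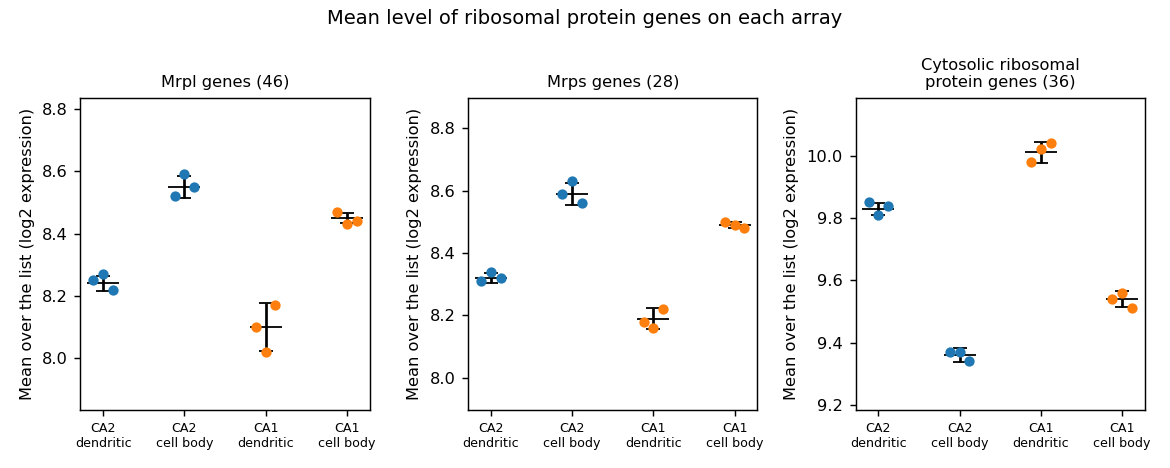
Mean log2 expression on each array of the 46 Mrpl genes, the 28 Mrps genes and 36 cytosolic ribosomal protein genes, for the 4 groups (points are arrays, bars are the mean and SD of 3 arrays). Both kinds of mitochondrial ribosomal protein gene lie lower in the dendritic than in the cell body layer of each region, while the cytosolic ribosomal protein genes lie higher in it.

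The first comparison asked which of these RNAs differ in CA2 between the dendritic layer and the cell body layer. Of the 74 genes, 45 fell in the dendritic layer and 3 rose, with a median difference of -0.35 (quartiles -0.47 and -0.13). Over all 30142 genes, 34.0% were called, 17.8% lower and 16.2% higher, and the median difference was -0.03. A call means an adjusted p under 0.05 in limma's moderated test over all 12 arrays with the replicate number as a block, Benjamini-Hochberg adjusted over all genes. The dendritic arrays were all below the cell body arrays for 51 of the 74 genes, against 25.7% of all genes, and all above for 6, against 21.7%. No gene was called lower by 1 or more, and 12 were called lower by at least 0.5.

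The largest CA2 falls were in large-subunit genes. Mrpl22, whose protein lines the tunnel through which the new chain leaves the ribosome, read 7.75, 8.13 and 7.95 on the CA2 dendritic arrays, against 8.81, 8.81 and 8.87 on the CA2 cell body arrays. It fell by 0.89 (SE 0.16, adjusted p = 0.00136), with no overlap of the layers. Without the 3 arrays high in oocyte genes its adjusted p was 0.0601. Mrpl19, a large-subunit protein with a bacterial homolog, read 7.69, 7.69 and 7.64 in the dendritic layer, against 8.40, 8.55 and 8.50 in the cell body layer. Its fall of 0.81 (SE 0.09, adjusted p = 3.77e-05) kept its call without those arrays. Mrpl44, a mitochondria-specific large-subunit protein whose human gene is mutated in an infantile cardiomyopathy, fell by 0.73 (SE 0.11, adjusted p = 4.73e-04). It was above the background features on 0 of the CA2 dendritic arrays, so the size of this fall is uncertain. Mrpl46, of the central protuberance at the top of the large subunit, fell by 0.72 (SE 0.11, adjusted p = 4.42e-04). Mrps22, a mitochondria-specific small-subunit protein, read 8.34, 8.46 and 8.63 in the dendritic layer, against 9.13, 9.11 and 9.08 in the cell body layer. It fell by 0.63 (SE 0.10, adjusted p = 4.52e-04), as did Mrps31, also specific to mitochondria, by 0.62 (SE 0.09, adjusted p = 2.65e-04).

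All 3 genes of the ribosomal stalk and its base, where translation factors dock, fell in the CA2 dendritic layer by a like amount. Mrpl12 fell by 0.44 (SE 0.08, adjusted p = 0.00169), Mrpl10 by 0.41 (SE 0.08, adjusted p = 0.00174) and Mrpl11 by 0.40 (SE 0.09, adjusted p = 0.00626). Of 6 genes for proteins at the exit tunnel, 2 fell in CA2, Mrpl22 and Mrpl45. Mrpl45, which anchors the ribosome at the inner membrane, averaged 7.75 ± 0.10 in the dendritic layer and 8.32 ± 0.07 in the cell body layer (SD, n = 3 each) and fell by 0.57. Of 6 central protuberance genes 2 fell, and of 4 genes for proteins along the mRNA path 3 fell. In CA1 2 of the 3 stalk genes and 4 of the 6 tunnel genes fell. So did 3 of the 6 protuberance genes and 1 of the 4 mRNA path genes. The stalk differences in CA1 were unlike, at -0.15 for Mrpl12 (adjusted p = 0.155), -0.31 for Mrpl10 and -1.04 for Mrpl11. The order of the sites thus differed between regions. Of genes within 0.25 of the level of a mitochondrial ribosomal protein gene, on average 38.2% fell in CA2 and 41.7% in CA1.

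The 3 genes that rose in the CA2 dendritic layer were Mrpl52, Mrps15 and Mrps36. Mrpl52, a mitochondria-specific large-subunit protein, read 9.13, 9.20 and 9.07 in the dendritic layer, against 8.63, 8.91 and 8.74 in the cell body layer. It rose by 0.37 (SE 0.08, adjusted p = 0.00323), and the layers did not overlap. Mrps15, the homolog of a bacterial protein that binds ribosomal RNA early in assembly, rose by 0.24 (SE 0.08, adjusted p = 0.0363). Mrps36, the subunit of ketoglutarate dehydrogenase, rose by 0.24 (SE 0.08, adjusted p = 0.0379). Its pseudogenes Mrps36-ps2 and Mrps36-ps1, which may share sequence with it, rose too, by 0.42 (adjusted p = 0.00431) and 0.34 (adjusted p = 0.0286), so the source of this signal is uncertain. Mrps15 lost its call under 13 of 23 alternative settings and Mrps36 under 12 of 23. Without the 3 arrays high in oocyte genes, 15 of the 74 genes were called lower in the CA2 dendritic layer and 0 higher, while the median difference was -0.36. Of all genes, 5707 were called in that fit, against 10251 with all arrays.

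**Figure D2:**
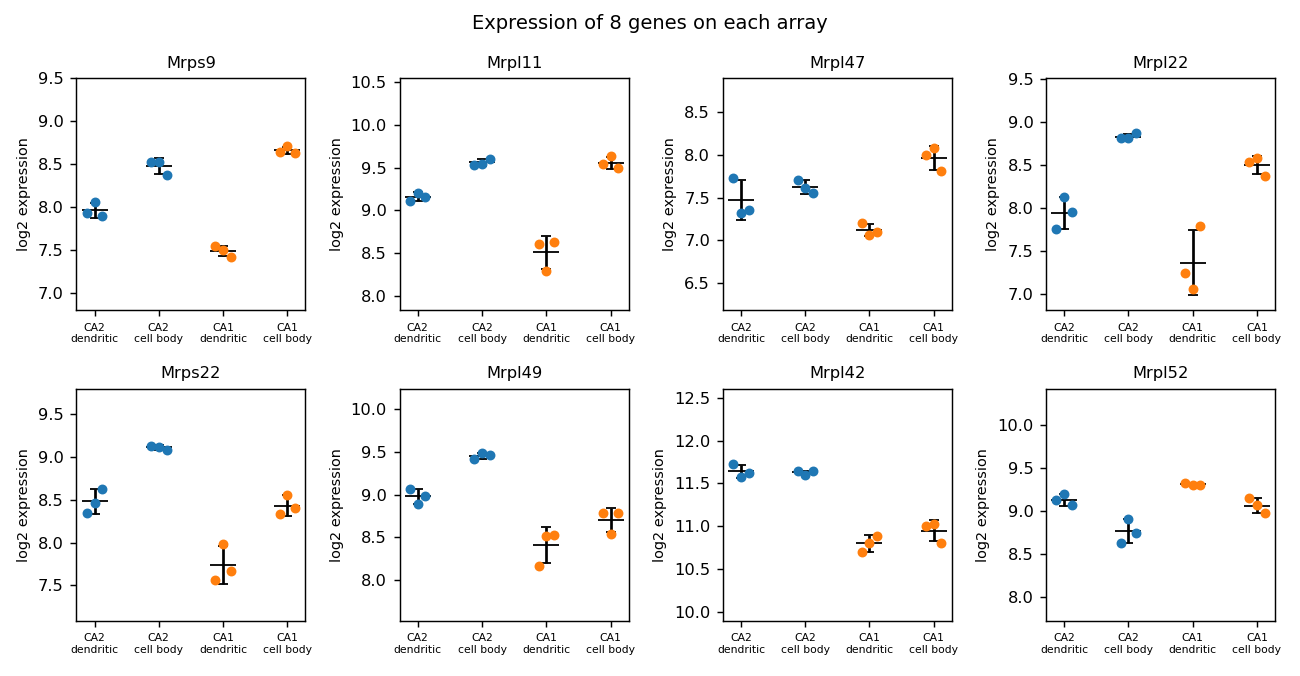
Log2 expression on each array for Mrps9, Mrpl11, Mrpl47, Mrpl22, Mrps22, Mrpl49, Mrpl42 and Mrpl52 in the 4 groups (points are arrays, bars are the mean and SD of 3 arrays, each panel spans the same range). In Mrps9, Mrpl11, Mrpl22 and Mrps22 each dendritic layer lies below its cell body layer, in Mrpl52 each lies above it, and Mrpl42 differs between regions more than between layers.

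The same question in CA1 gave like counts. In the CA1 dendritic layer 47 of the 74 genes fell and 1 rose, with a median of -0.31 (quartiles -0.50 and -0.13). Over all genes 46.9% were called, 18.5% lower and 28.3% higher, with a median of 0.12, so most of the called genes of this comparison rose while these fell. The dendritic arrays were all below the cell body arrays for 50 of the 74 genes, against 20.4% of all genes, and all above for 2, against 34.7%. A total of 21 genes were called lower by at least 0.5 and 3 by at least 1. Quantile normalization of the deposited values gave 33 lower and 5 higher genes with a median of -0.19.

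The 3 genes that fell by at least 1 were Mrps9, Mrpl22 and Mrpl11. Mrps9, the homolog of a bacterial small-subunit protein that reaches toward the tRNA in the P site, read 7.54, 7.50 and 7.42 on the CA1 dendritic arrays, against 8.64, 8.71 and 8.63 on the CA1 cell body arrays. It fell by 1.17 (SE 0.06, adjusted p = 3.19e-07), and the gap between the layers was far wider than the spread in either. Mrpl22 read 7.24, 7.05 and 7.79 in the dendritic layer, against 8.54, 8.58 and 8.37 in the cell body layer. It fell by 1.14 (SE 0.16, adjusted p = 2.26e-04), with 1 dendritic array closer to the cell body arrays than the others. Mrpl11, of the stalk base, read 8.61, 8.29 and 8.63 in the dendritic layer, against 9.54, 9.63 and 9.49 in the cell body layer. It fell by 1.04 (SE 0.09, adjusted p = 9.37e-06).

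Further large CA1 falls were spread over both subunits and both origins. Mrpl47, at the exit tunnel, fell by 0.84 (SE 0.09, adjusted p = 3.35e-05), and Mrpl16, which lies near the tRNA sites, by 0.80 (SE 0.11, adjusted p = 1.90e-04). Mrpl3, whose bacterial homolog reaches toward the catalytic centre, fell by 0.77 (SE 0.08, adjusted p = 4.10e-05), and Mrpl37, specific to mitochondria, by 0.75 (SE 0.08, adjusted p = 3.94e-05). Mrps22 read 7.56, 7.98 and 7.67 in the dendritic layer, against 8.33, 8.56 and 8.40 in the cell body layer, and fell by 0.69 (SE 0.10, adjusted p = 2.10e-04). The falls of these 5 genes, of Mrps9, Mrpl22 and Mrpl11, and of Mrpl45 kept their calls under all 23 alternative settings. Mrps30, a large-subunit protein despite its name, fell by 0.64 (SE 0.14, adjusted p = 0.00323). It was above the background features on 0 of the CA1 dendritic arrays, so the size of this fall is uncertain. The gene that rose was again Mrpl52, at 9.33, 9.30 and 9.30 in the dendritic layer, against 9.15, 9.07 and 8.97 in the cell body layer. This rise of 0.25 (SE 0.08, adjusted p = 0.0245) lost its call under 9 of 23 alternative settings.

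By count, the falls were spread over both subunits and both origins. In CA2, 27 of 46 Mrpl genes and 18 of 28 Mrps genes fell, and in CA1 30 of 46 and 17 of 28 did. By origin, 26 of 44 genes with a bacterial homolog and 19 of 30 specific to mitochondria fell in CA2, and 27 of 44 and 20 of 30 in CA1. The paralogs Mrps18a, Mrps18b and Mrps18c gave an example of spread within a family. Mrps18a, of the large subunit, fell by 0.42 in CA2 and 0.34 in CA1, and Mrps18b, of the small subunit, by 0.39 in CA2 and 0.42 in CA1, with adjusted p between 4.61e-04 and 0.00208. A further feature, shared by Mrps18b and another gene and not used, showed no such fall. In CA2 it read 6.32, 6.56 and 6.46 in the dendritic layer, against 6.42, 6.44 and 6.36 in the cell body layer. In CA1 it read 6.51, 6.34 and 6.34, against 6.44, 6.49 and 6.56. All these values lie below the 95th percentile of the background features. Mrps18c, also of the small subunit, fell by 0.27 in CA1 (SE 0.08, adjusted p = 0.021) and its difference in CA2 was -0.02 (SE 0.08, adjusted p = 0.892). The test of the difference between these 2 values gave an adjusted p of 0.17.

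Most of the genes that fell in one region fell in the other. A total of 38 genes fell in both dendritic layers, which 12.2% of all genes did. They were Mrpl1, Mrpl2, Mrpl3, Mrpl4, Mrpl10, Mrpl11, Mrpl15, Mrpl16, Mrpl19, Mrpl20, Mrpl21, Mrpl22, Mrpl28, Mrpl35, Mrpl37, Mrpl38, Mrpl41, Mrpl43, Mrpl44, Mrpl45, Mrpl46, Mrpl49, Mrpl50, Mrpl55 and Mrpl57 of the Mrpl genes, and Mrps5, Mrps9, Mrps11, Mrps14, Mrps16, Mrps17, Mrps18a, Mrps18b, Mrps22, Mrps26, Mrps31, Mrps33 and Mrps34 of the Mrps genes. A further 7 were called lower in CA2 alone (Mrpl12, Mrpl36, Mrps2, Mrps7, Mrps12, Mrps23 and Mrps27), and 9 in CA1 alone (Mrpl18, Mrpl24, Mrpl32, Mrpl39, Mrpl47, Mrps10, Mrps18c, Mrps30 and Mrps35). Mrpl52 rose in both. In neither comparison were 17 genes called: Mrpl9, Mrpl13, Mrpl14, Mrpl17, Mrpl23, Mrpl27, Mrpl33, Mrpl34, Mrpl40, Mrpl42, Mrpl48, Mrpl51, Mrpl54, Mrps21, Mrps24, Mrps25 and Mrps28. Across the 74 genes the layer differences of the 2 regions, which share no array, correlated with Pearson's r = 0.68 and Spearman's rho = 0.67, as a description over genes that are not independent replicates. Of the 74 genes, 60 were below 0 in both regions and 6 above 0 in both.

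**Figure D3:**
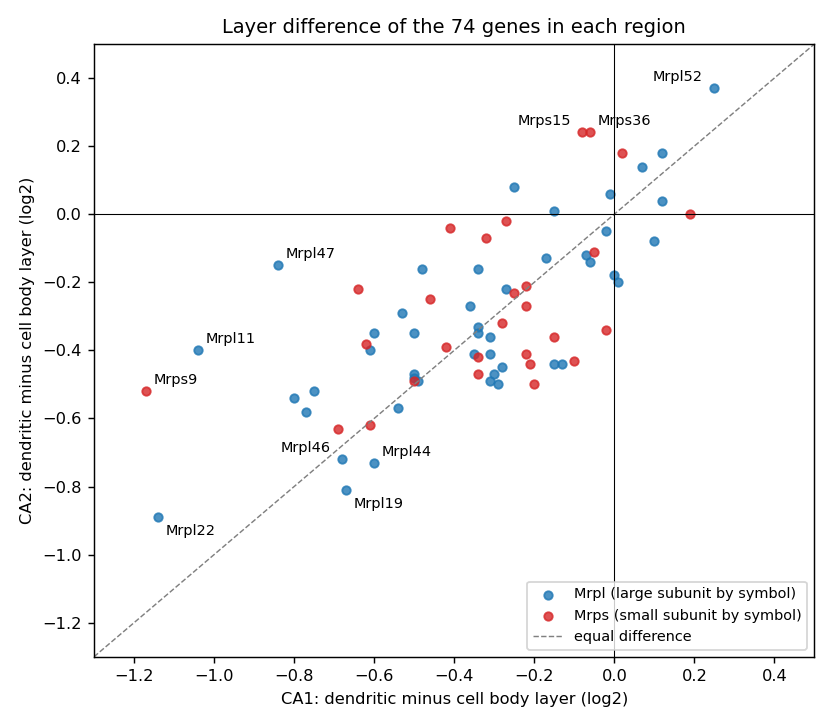
Difference between dendritic and cell body layer (log2) in CA2 against that in CA1 for the 74 genes, Mrpl in blue and Mrps in red, with a dashed line of equal difference. Most points, 60 of 74, lie at the lower left, Mrpl52 lies at the upper right, and Mrps9, Mrpl11 and Mrpl47 lie above the line.

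The genes were next set against other genes of like level, since genes of higher level were called more often. Each of the 74 was compared with the 220 to 3080 other genes whose mean level lay within 0.25 of its own. Of the 74, 60.8% were called lower in the CA2 dendritic layer, against 38.2% of their like genes on average. In CA1 it was 63.5% of the 74, against 41.7% of their like genes. The layer difference was below the median of its like genes for 55 of the 74 genes in CA2 and for 54 in CA1. Among genes with a mean level of 7 to 8, 12 of 22 fell in CA2 and 14 of 22 in CA1, against 27.0% and 27.2% of other genes. At 8 to 9, 25 of 36 fell in CA2 and 23 of 36 in CA1, against 43.0% and 47.6% of others. Like genes were thus also lower in the dendritic layer more often than all genes, and the 74 more often still.

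**Figure D4:**
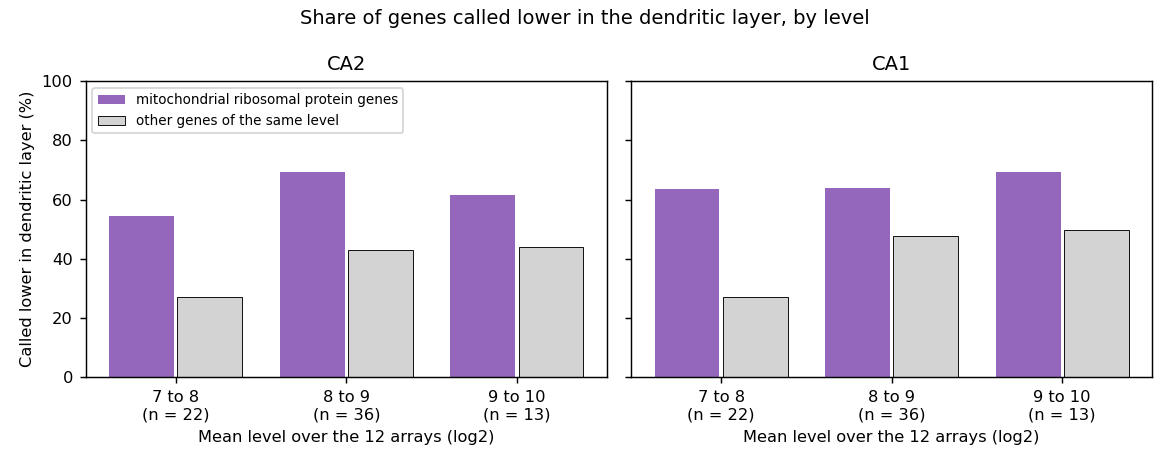
Share of genes called lower in the dendritic layer (percent), in CA2 and CA1, for the mitochondrial ribosomal protein genes and for all other genes in bands of mean log2 level. In each band with at least 10 of the 74 genes their share lies above that of the other genes, for example 25 of 36 against 43.0% in CA2 at a level of 8 to 9.

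Cell-type markers moved with the layers beside all of these values. The mean of 7 astrocyte markers was 9.55 to 9.72 on the CA2 dendritic arrays, against 7.64 to 7.66 on the CA2 cell body arrays, and 9.52 to 9.55 on the CA1 dendritic arrays, against 7.49 to 7.54 on the CA1 cell body arrays. All 7 astrocyte, 7 microglia, 6 endothelial, 6 oligodendrocyte and 5 mural markers were above every cell body array on every dendritic array of both regions, as were 6 of 9 interneuron markers. Of 5 pyramidal neuron markers 4 were below in both regions, and 1, Camk2a, was above in both. Camk2a read 12.76, 12.81 and 12.80 on the CA2 dendritic arrays, against 12.11, 12.10 and 12.13 on the CA2 cell body arrays. In CA1 it read 12.92, 13.00 and 12.96 in the dendritic layer, against 12.27, 12.24 and 12.23 in the cell body layer. The mean of all 5 markers was 9.44 to 9.65 on the CA2 dendritic arrays, against 10.77 to 10.85 on the CA2 cell body arrays. In CA1 this mean was 10.09 to 10.19 on the dendritic arrays, against 10.77 to 10.94 on the cell body arrays. The part of the cell mixture in the layer differences was not tested.

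Other lists of mitochondrial translation held more genes that fell than genes that rose, and that of cytosolic ribosomal proteins did not. Of 5 mitoribosomal proteins that the annotation lists under other symbols, 4 fell in CA2 and 5 in CA1. Of genes of like level 38.8% fell in CA2 and 41.7% in CA1. Ptcd3, a small-subunit protein, fell by 0.50 in CA2 (SE 0.07, adjusted p = 1.87e-04) and 0.78 in CA1 (SE 0.07, adjusted p = 7.42e-06), and Dap3, a GTP-binding small-subunit protein, by 0.47 in CA2 and 0.51 in CA1. Of 11 mitochondrial translation factors 8 fell in CA2 and 9 in CA1, and 0 rose in either. Among them were Mtrf1, a release factor homolog, at -0.50 in CA2 and -0.78 in CA1, and Mtif2, an initiation factor, at -0.38 and -0.58. Of 13 genes for mitochondrial mRNA handling and membrane insertion 7 fell in CA2 and 8 in CA1. Lrpprc, which stabilizes mitochondrial mRNAs, fell by 0.55 in CA2 (adjusted p = 5.52e-05) and 0.78 in CA1 (adjusted p = 4.88e-06). Of 19 mitochondrial aminoacyl-tRNA synthetase genes, which include Qrsl1 of the glutaminyl-tRNA amidotransferase, 8 fell in each region. Of 27 genes for ribosome assembly and rRNA modification 9 fell and 1 rose in CA2, and 11 fell and 3 rose in CA1, Mpv17l2 rising in both. Against genes of like level, the assembly list was nearest to its background, with 33.3% lower in CA2 and 40.7% in CA1, against 23.7% and 24.5% of like genes. The synthetases had 42.1% lower in each region, against 21.8% of like genes in CA2 and 22.6% in CA1. The mRNA handling genes had 53.8% in CA2 and 61.5% in CA1, against 34.7% and 37.1%, and the translation factors 72.7% and 81.8%, against 29.8% and 31.2%. Without the 3 arrays high in oocyte genes the counts that fell in CA2 were 1 of 5, 4 of 11, 3 of 13, 4 of 19 and 3 of 27 in the order given.

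In CA2 the RNA of the small ribosomal subunit did not fall with the protein genes. This small-subunit RNA of the mitochondrial ribosome, mt-Rnr1, averaged 13.00 ± 0.06 in the CA2 dendritic layer and 12.53 ± 0.07 in the CA2 cell body layer (SD, n = 3 each), a rise of 0.47 (SE 0.10, adjusted p = 0.00395). In CA1 it averaged 12.98 ± 0.23 in the dendritic and 12.76 ± 0.10 in the cell body layer, a difference of 0.22 with an adjusted p of 0.0942. Genes of like level were called higher in 50% and lower in 17.6% in CA2, and in 44.1% and 8.82% in CA1. A rise in CA2 was thus common at this level. No other mitochondrial ribosomal RNA was compared. The CA2 rise was 0.26 with quantile normalization and 0.76 without the 3 arrays high in oocyte genes, and was called in both. The RNA of cytosolic ribosomal proteins went the other way from that of the mitochondrial ones. Of 36 such genes 32 rose and 1 fell in the CA2 dendritic layer, against 37.2% and 29.2% of genes of like level. In CA1 33 rose and 0 fell, against 36.9% and 33.6% of genes of like level. The median of the 36 was 0.52 in CA2 and 0.47 in CA1. Without the 3 arrays 19 rose in CA2. Rps15 was 0.89 higher in CA2 (adjusted p = 1.10e-06) and 0.77 higher in CA1 (adjusted p = 3.16e-06). Nuclear genes of the respiratory chain did not show the counts of the ribosomal protein genes. Of 34 complex I genes 6 fell and 4 rose in CA2, and 11 fell and 2 rose in CA1. Of 17 ATP synthase genes 3 fell and 4 rose in CA2, and 3 fell and 1 rose in CA1. Complex I genes were lower in 17.6% in CA2 and 32.4% in CA1, against 38% and 45.1% of genes of like level. They were higher in 11.8% and 5.88%, against 31.3% and 30.9%. ATP synthase genes were lower in 17.6% in each region, against 28% of like genes in CA2 and 35% in CA1. They were higher in 23.5% and 5.88%, against 42.8% and 40.9%. With quantile normalization the counts were 8 lower and 4 higher for complex I and 7 lower and 1 higher for ATP synthase in CA2, and 10 lower and 7 higher for complex I in CA1.

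**Figure D5:**
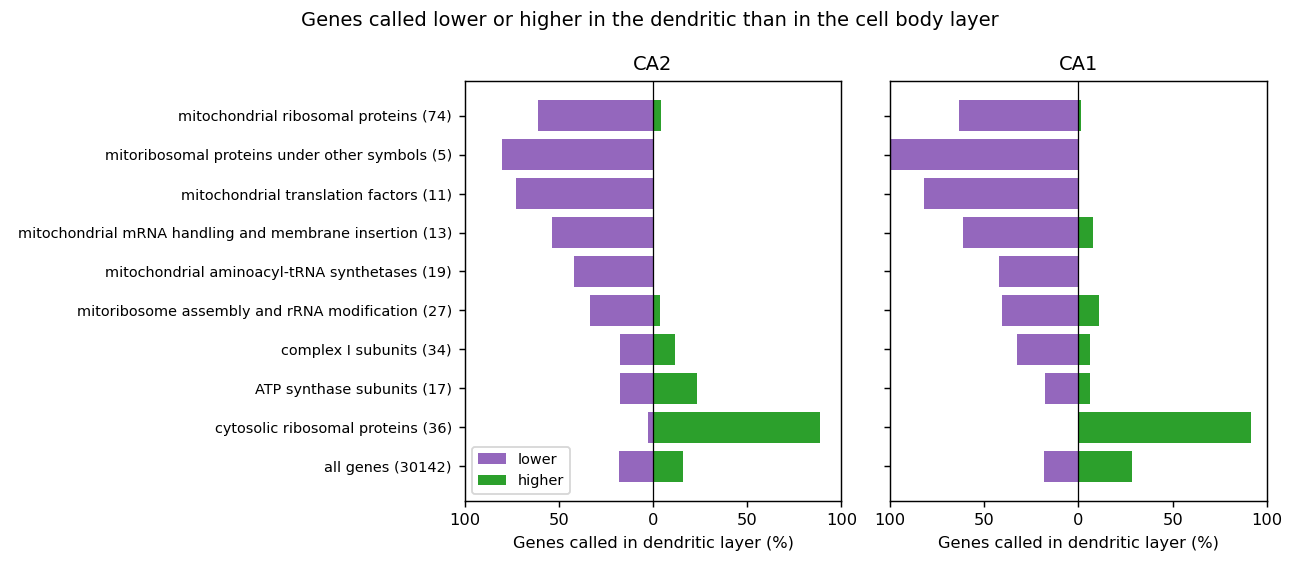
Percent of genes of each list called lower (left) or higher (right) in the dendritic than in the cell body layer, in CA2 and CA1, with the number of genes measured in brackets. The lists of mitochondrial translation reach further to the left than all genes do, and the cytosolic ribosomal proteins reach to the right.

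Whether the layer difference itself differed between regions was tested as the CA2 difference minus the CA1 difference. Of the 74 genes 3 were called, all higher, against 11.6% of all genes called, 4.81% higher and 6.81% lower, so the share is below the background. The median was 0.01, against -0.11 for all genes. With quantile normalization 3 were higher and 4 lower. The 3 genes were Mrpl47 at 0.69 (SE 0.13, adjusted p = 0.00804), Mrps9 at 0.66 (SE 0.09, adjusted p = 0.00165) and Mrpl11 at 0.64 (SE 0.13, adjusted p = 0.0132). Mrps9 read 7.93, 8.06 and 7.89 in the CA2 dendritic layer, against 8.53, 8.53 and 8.37 in the CA2 cell body layer, so that it fell by 0.52 in CA2, and it fell by 1.17 in CA1. Mrpl47 read 7.73, 7.32 and 7.36 in the CA2 dendritic layer, against 7.70, 7.61 and 7.55 in the CA2 cell body layer, and these overlap. In CA1 it read 7.20, 7.06 and 7.10 in the dendritic layer, against 8.00, 8.08 and 7.81 in the cell body layer, which do not overlap. It was not above the background features on any CA1 dendritic array and on only 1 of 3 arrays in each CA2 layer, and Mrps9 was above them on 1 of 3 CA1 dendritic arrays, so the sizes of these differences are uncertain. Leaving out any 1 replicate number ended the calls of Mrpl47 (adjusted p = 0.0713, 0.0609 and 0.0567 without replicates 1, 2 and 3) and of Mrpl11 (0.0797, 0.105 and 0.0577). The call of Mrps9 ended without replicate 2 (0.058). Without the 3 arrays high in oocyte genes the adjusted p was 0.0753 for Mrps9 and 0.219 for Mrpl11, and Mrpl47 kept its call.

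Setting the cell body layer of CA2 against that of CA1 asked how the genes differ between the neurons of the fields, with run and region not told apart. Of the 74 genes 17 were higher in CA2 and 4 lower, against 21.1% of all genes called, 10.6% higher and 10.5% lower. Genes of like level were on average called higher in 21.0% and lower in 18.3%, so the share of higher genes among the 74, 23.0%, was near that of like genes. The median was 0.09, which lay 0.07 above that of all genes. CA2 arrays were all above the CA1 arrays for 29 of the 74 genes, against 23.9% of all genes, and all below for 11, against 19.8%. Mrpl49, specific to mitochondria, read 9.41, 9.48 and 9.46 in the CA2 cell body layer, against 8.78, 8.54 and 8.79 in that of CA1, and was 0.75 higher (SE 0.11, adjusted p = 7.24e-04). Mrpl42, the gene of highest level and specific to mitochondria, read 11.64, 11.60 and 11.64 in CA2, against 11.00, 11.03 and 10.81 in CA1, and was 0.68 higher (SE 0.08, adjusted p = 2.91e-04). Mrps22 was also 0.68 higher (SE 0.10, adjusted p = 7.45e-04), followed by Mrps23 at 0.54, Mrpl51 at 0.52 and Mrpl9 at 0.46. The calls of Mrpl49, Mrpl42 and Mrps22 held under all 23 alternative settings.

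The 4 genes called lower in the CA2 cell body layer were Mrpl47 at -0.34, Mrpl52 at -0.30, Mrps10 at -0.29 and Mrpl4 at -0.23. Scaling ended most of these calls. With quantile normalization 24 of the 74 genes were higher and 1 lower, and with median centring 25 were higher and 0 lower. The share of higher genes among all called moved likewise, at 70.4% with quantile normalization and 74.3% with median centring, beside 50.3% as deposited. Relative to the median of all genes the median of the 74 was 0.07 to 0.08 higher in all 3. By origin, 11 of 30 mitochondria-specific genes (36.7%) were higher in CA2 and 6 of 44 with a bacterial homolog (13.6%) were. Beside these, 10.6% of all genes were higher, and on average 21.0% of genes of like level to the 74. This contrast by origin was narrower in the dendritic layers, as given below. In the cell body layers the count of higher genes among the 74 fell to 8 without replicate 2 or 3. It was 11 without replicate 1 or without CA1 cell body array 1. It was 10 without CA2 cell body array 2 or CA1 cell body array 2.

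In the dendritic layers the same comparison gave 28 genes higher in CA2 and 6 lower. Over all genes 30.2% were called, 11.6% higher and 18.6% lower. Of the 74, 37.8% were called higher and 8.11% lower, against on average 25.4% and 18.8% of their like genes. The median of the 74 was 0.11, against -0.11 for all genes, a distance of 0.22 that was 0.15 with quantile normalization and 0.22 with median centring. CA2 arrays were all above the CA1 arrays for 27 genes, against 13.8% of all genes, and all below for 8, against 27.2%. Mrpl42 read 11.73, 11.57 and 11.62 in the CA2 dendritic layer, against 10.70, 10.81 and 10.89 in that of CA1, and was 0.84 higher (SE 0.08, adjusted p = 1.61e-04). Mrps22 was 0.74 higher (SE 0.10, adjusted p = 6.03e-04), and both calls held under all 23 alternative settings. Mrpl11 was 0.65 higher, Mrpl50 0.63, Mrpl22 0.58, Mrpl15 and Mrpl49 0.57 and Mrpl39 0.55. Mrpl42, Mrps22, Mrpl49, Mrpl50 and Mrpl15 were among the genes called higher in CA2 in both layers. By origin, 13 of 30 mitochondria-specific genes (43.3%) were higher in the CA2 dendritic layer and 15 of 44 with a bacterial homolog (34.1%) were.

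The 6 genes lower in the CA2 dendritic layer were Mrpl20 at -0.33, Mrpl34 at -0.31, Mrpl10 at -0.27, Mrpl4 and Mrpl38 at -0.24 and Mrps16 at -0.24. With median centring 32 genes were higher and 0 lower, and with quantile normalization 28 were higher and 7 lower. Among all called genes 70.3% and 56.4% were higher under these settings, beside 38.3% as deposited. Only 9 genes were higher, and 0 lower, in a fit of the arrays of the dendritic layers alone, and 6 were higher and 0 lower without the 3 arrays high in oocyte genes. The count of higher genes was 12 without replicate 1 or 2 and 17 without CA1 dendritic array 2. Of 36 cytosolic ribosomal protein genes 18 were lower and 0 higher in the CA2 cell body layer, against 24.2% and 17.9% of genes of like level. In the dendritic layer 16 of the 36 were lower in CA2 and 2 higher, against 20.5% and 23% of genes of like level. With median centring 9 were lower and 3 higher in the cell body layer, and 8 lower and 2 higher in the dendritic layer. With the 3 arrays high in oocyte genes left out, 11 were lower in the cell body layer and 1 in the dendritic layer, with 0 higher in either. Markers of other cells differed between the dendritic pieces too. The mean of 6 oligodendrocyte markers was 9.04 to 9.21 on the CA2 dendritic arrays, against 8.42 to 8.77 on the CA1 dendritic arrays. That of 7 microglia markers was 9.14 to 9.19 in CA2, against 9.55 to 9.63 in CA1, and that of the pyramidal neuron markers 9.44 to 9.65 in CA2, against 10.09 to 10.19 in CA1. In the cell body layers the oligodendrocyte mean was 7.69 to 7.81 in CA2, against 7.05 to 7.18 in CA1. The part of these cells in the difference between regions was not tested.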

How the data were processed

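RNA of 12 laser-captured pieces was measured on Affymetrix whole-transcriptome arrays. The deposited values are log2 expression made by the authors with RMA, per the submitters' processing notes, and their software and build were not given in the sources used here. RMA subtracts background, normalizes quantiles and summarizes the probes of a feature, which can compress differences at low intensity. Of 72688 features, 30604 had 1 symbol, 2146 several and 39938 were unnamed here. The feature of highest mean stood for each gene, which left 30142 genes.

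The test was limma's (version 3.58.1, R 4.3.3), with lmFit and eBayes fitted over the 12 arrays, 4 means and a block for replicate number. It was two-sided, with Benjamini-Hochberg adjustment over all genes. The fit was tested on simulated data. The protocols tie 4 captured pieces to each of 3 mice, which is the reason for the block. The 5 comparisons were the layers within CA2 and within CA1, the difference of these, and CA2 against CA1 in each layer. No test was run over the list as a whole. Errors are SD over 3 arrays or the SE of the fit.

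By the naming rule, each comparison gave up to 8 called genes that rose most and 8 that fell most (in the layer comparisons only if the sign was shared by all 3 pairs of equal number), with every gene called against the main direction where these were 8 or fewer. Mrps18a, Mrps18b, Mrps18c, Mrpl11, Mrpl12, Mrps30, Mrps36, Mrps9 and Mrpl45 could be named whatever their value, and up to 4 genes of each other list. Mrpl10 was named in the layer comparisons after its values were seen, to complete the stalk genes. The lists by call in both regions name every gene. The members and lists were chosen with earlier results of these data known. Alternatives were another scaling, no block, array weights, other sets of genes or arrays, and leaving out each replicate or array. The counts of the other lists under other scalings and without the 3 arrays high in oocyte genes and their like-level shares were added after seeing the data.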

Additional observations from a re-analysis of the deposited data

Results flagged for a closer look

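The layer difference (dendritic minus cell body) of 3 of the 74 genes (4.05%) differed between the regions, with limma's adjusted p under 0.05 over all genes. Of all genes 11.6% were called in this test, 4.81% higher and 6.81% lower, so the share is below the background. In each of the 3 genes the CA2 difference was nearer 0. For Mrps9 the CA2 difference was -0.52 and the CA1 difference -1.17, a gap of 0.66 (SE 0.09, adjusted p = 0.00165). For Mrpl47 they were -0.15 and -0.84, a gap of 0.69 (SE 0.13, adjusted p = 0.00804). For Mrpl11 they were -0.40 and -1.04, a gap of 0.64 (SE 0.13, adjusted p = 0.0132). The 2 differences share no array. Leaving out any 1 replicate number ended the calls of Mrpl47 and Mrpl11, and leaving out replicate 2 ended that of Mrps9. Mrpl47 was above the background features on none of the CA1 dendritic arrays and Mrps9 on 1 of 3. In the cell body layers Mrpl47 was lower in CA2 (-0.34, adjusted p = 0.0211), while Mrps9 (-0.18, adjusted p = 0.0637) and Mrpl11 (0.00, adjusted p = 0.988) did not pass. In the dendritic layers all 3 were higher in CA2, Mrps9 by 0.47, Mrpl47 by 0.35 and Mrpl11 by 0.65.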

How the results depend on the processing

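The falls in the dendritic layers kept their direction in every setting tried, and their counts were within 1.5 times except in 1. Without the 3 arrays high in oocyte genes, which leaves 1 CA2 dendritic array, the counts were 15 lower and 0 higher for the CA2 layers, 1 higher for the difference of differences, 1 lower for the cell body layers between regions, and 6 higher and 0 lower for the dendritic layers between regions. Quantile normalization gave a median of -0.19 with 5 higher for the CA1 layers, 5 higher for the CA2 layers, -0.06 with 4 lower for the difference of differences, and 0.18 with 1 lower for the cell body layers between regions. Median centring gave 0 higher for the CA1 layers and 1 for the CA2 layers, and between regions 0.19 with 0 lower in the cell body layers and 0.22 with 0 lower in the dendritic layers. A fit of the compared groups alone gave 0 higher for the CA1 layers, and 9 higher and 0 lower for the dendritic layers between regions. Array weights gave 9 lower for the cell body and 3 lower for the dendritic layers between regions. Testing genes above the median feature gave 7 lower for the cell body layers, and testing all features gave 0 higher for the CA1 layers, 1 higher for the CA2 layers and 3 lower for the dendritic layers between regions.

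Leaving out each replicate number or array in turn gave, for the CA2 layers, 33 to 46 lower, 1 to 4 higher and a median of -0.37 to -0.31, and for the CA1 layers 34 to 48 lower, 0 to 2 higher and a median of -0.34 to -0.27. For the difference of differences it gave 0 to 8 higher, the 8 without CA1 dendritic array 3, 0 lower and a median of -0.01 to 0.05. Between regions it gave 8 to 19 higher, 0 to 6 lower and a median of 0.05 to 0.12 in the cell body layers, and 12 to 31 higher, 0 to 6 lower and a median of 0.06 to 0.17 in the dendritic layers. The cause of these changes was not tested, beyond the smaller number of arrays.

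Over all genes the number called in the difference of differences was 3504, and 697 to 4878 when 1 replicate number or array was left out. In the cell body layers between regions it was 6367, and 3451 to 6743. In the dendritic layers between regions it was 9105, and 3663 to 9706, with 3109 in a fit of those groups alone and 5579 with array weights. With the 3 arrays left out it was 5707 for the CA2 layers, against 10251 with all arrays, 699 for the difference of differences and 1918 for the dendritic layers between regions.

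The fit with no replicate block gave 50 lower and 1 higher for the CA1 layers, 45 lower and 3 higher for the CA2 layers, 4 higher and 2 lower for the difference of differences, 18 higher and 5 lower for the cell body and 30 higher and 6 lower for the dendritic layers between regions. Of 18 pairs of arrays with the same number, 1 correlated above 0.1 in the deviations from the group means (range -0.346 to 0.132), and 4 of 12 arrays correlated best with their own number, so the data do not show that the numbers pair the samples. For the single genes named, 1725 of 1991 alternative values kept their direction and side of the threshold, 217 lost the call and 18 gained it. In 31 a value that was not called in either setting changed sign, and 0 called values did. Signal over background limits 24 of the 74 genes, which were not above the 95th percentile of the background features on every array.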
